A study of Mus musculus with 3 samples.

Results

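Intergenic polyadenylation sites without a main signal were the 26913 autosomal sites whose deposited region code was IG and whose deposited signal column listed neither AATAAA nor ATTAAA at an offset of -40 to -10 bases. Offsets count the first letter of the hexamer, and the site base has the offset -1. They were 26913 of 171741 autosomal sites and of 178115 sites in all. Of these, 16879 had no hexamer of any kind in the deposited column, and 10034 had only variant hexamers or a main hexamer outside the window. The deposited codes are not explained in the files, so the IG code was checked against GENCODE M21: 1 of the 26913 sites lay in an annotated gene on its strand.

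The sites came from PAS-seq, which reads the 3′ ends of polyadenylated RNA, made with the QuantSeq protocol from F121-9 cells. F121-9 is a single hybrid mouse embryonic stem cell line from a Cast × 129 cross. There was 1 group of 3 libraries, biological replicates 1 to 3 in the labels, each from 500 ng of RNA of untreated cells at passage 14. Nothing in the labels says that the replicates were grown apart, so part of the variation among them may be technical. The 8 markers of pluripotent cells tested summed to between 20.8 RPM (Zfp42) and 909 RPM (Tdh) in the mean of the libraries. RPM scales the reads at a site to the size of its library, so that 1 read was worth 0.0902, 0.0673 and 0.0711 RPM in replicates 1, 2 and 3. None of the 9 endoderm, mesoderm and neuroectoderm markers reached 10 RPM, 1 of 3 trophoblast markers did (Krt7, 10.3 RPM), and 2 of 5 fibroblast markers did (Thy1, 84.4 RPM, and Vim, 71.6 RPM).

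Most messenger RNAs are cut a short way after AATAAA or a close variant, which the cleavage and polyadenylation specificity factor binds. A stretch rich in U and G after the cut is bound by the cleavage stimulation factor. Primers made of T can also start on runs of A inside an RNA, so a site with genomic A after it may mark a primed position and not a cut. Short interspersed elements (SINEs) such as B1, B2 and ID carry A-rich tails and are transcribed by RNA polymerase III. Bc1, a brain cytoplasmic RNA of rodents, and the 4.5S RNA that RefSeq lists as Rn4.5s are small polymerase III RNAs related to the ID and the B1 elements.

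Of the 10 most-read members, numbered by mean RPM, 8 are shown first, because the 10 hold the largest share of the member reads. Each line gives 60 bases up to and including the site base, then 30 bases after it, 5′ to 3′ in the sense of the RNA, from the RefSeq assembly of GRCm38 (mm10). Capitals mark the site base and any hexamer that the deposited column lists in the 60 bases.
Member 1, Bc1-like, chr4:56955375-56955464, minus strand: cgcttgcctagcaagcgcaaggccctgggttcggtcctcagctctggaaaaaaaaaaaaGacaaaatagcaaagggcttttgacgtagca
Member 2, Gid8 RefSeq end, chr2:180721536-180721625, plus strand: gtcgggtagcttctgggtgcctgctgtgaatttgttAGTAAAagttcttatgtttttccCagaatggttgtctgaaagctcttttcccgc
Member 3, soft-masked, chr16:94011060-94011149, plus strand: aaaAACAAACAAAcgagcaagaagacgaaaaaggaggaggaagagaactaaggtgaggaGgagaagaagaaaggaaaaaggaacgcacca
Member 5, Bc1-like, chr9:37673070-37673159, minus strand: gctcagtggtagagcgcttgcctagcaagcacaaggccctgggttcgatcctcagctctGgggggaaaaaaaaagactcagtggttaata
Member 7, far from genes, chr15:77873124-77873213, minus strand: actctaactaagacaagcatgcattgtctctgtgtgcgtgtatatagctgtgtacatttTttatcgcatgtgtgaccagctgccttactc
Member 8, far from genes, chr2:22744859-22744948, minus strand: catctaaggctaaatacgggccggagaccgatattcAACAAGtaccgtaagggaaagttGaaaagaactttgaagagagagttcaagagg
Member 9, Ubtd2 RefSeq end, chr11:32518650-32518739, plus strand: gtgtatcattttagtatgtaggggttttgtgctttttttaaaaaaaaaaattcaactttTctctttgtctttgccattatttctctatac
Member 10, far from genes, chr1:148453813-148453902, plus strand: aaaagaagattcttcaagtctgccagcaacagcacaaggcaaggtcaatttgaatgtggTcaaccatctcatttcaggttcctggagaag

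For contrast, 3 of the 4 most-read intergenic sites that do list a main hexamer are shown in the same way. They lay 3, 1 and 6 bases from the RefSeq transcript ends of Arf6, Zfp982 and Nkain1.
Arf6 end, chr12:69375924-69376013, plus strand: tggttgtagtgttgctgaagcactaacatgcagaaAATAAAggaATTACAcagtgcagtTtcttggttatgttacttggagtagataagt
Zfp982 end, chr4:147516006-147516095, plus strand: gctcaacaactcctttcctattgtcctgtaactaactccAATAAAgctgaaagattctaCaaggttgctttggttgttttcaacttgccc
Nkain1 end, chr4:130530107-130530196, minus strand: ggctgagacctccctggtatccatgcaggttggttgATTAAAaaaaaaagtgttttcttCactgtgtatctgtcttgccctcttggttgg

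The members held few of the reads. Of the autosomal reads, they took 0.673% in replicate 1, 0.581% in replicate 2 and 0.737% in replicate 3. The 12936 intergenic sites with a main signal took 0.916%, 1.04% and 1.01%. The members averaged 0.664% ± 0.0780 (SD, n = 3) and the sites with a main signal 0.987% ± 0.0634, a difference of -0.32 percentage points with the same sign in 3 of 3 libraries. The exact two-sided sign-flip test over 3 libraries cannot give a p under 0.25, and it gave 0.25 here and for each of the 8 other differences described below, also after Benjamini-Hochberg adjustment over the 9. No difference between site classes could therefore pass a threshold, and each is read against its spread over the libraries.

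Most members were seen in 1 library. Of the 26913, 23438 (87.1%) were read in 1 library, 2321 (8.62%) in 2 and 1154 (4.29%) in every library. Over all autosomal sites 18.6% were read in every library, and 12.03% of the intergenic sites with a main signal were. A single read in the 3 libraries together was all that 13304 members had (49.4%), against 24.6% of the intergenic sites with a main signal. At like depth the shares were as follows. With 10 to 29 reads in the 3 libraries, 9.95% of members and 8.76% of intergenic sites with a main signal were read in every library. With 30 to 99 reads it was 40.3% of members and 45.6% of sites with a main signal. With 100 reads or more, 198 of 204 members (97.1%) and 497 of 507 sites with a main signal (98.03%) were.

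**Figure D1:**
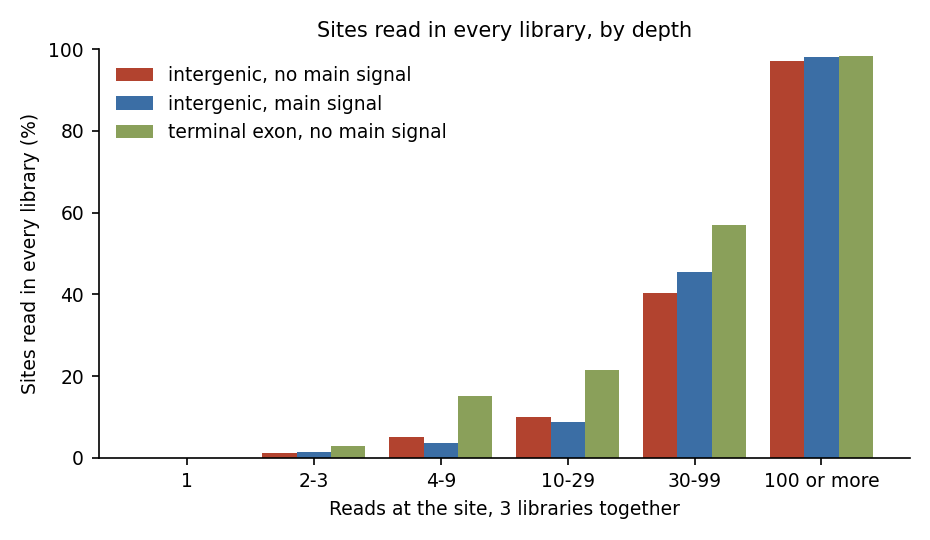
Share of sites read in every library (y axis, percent) by the number of reads at the site in the 3 libraries together (x axis), for intergenic sites without a main signal, intergenic sites with one and terminal exon sites without one. At 10 to 29 reads the bars are at 9.95%, 8.76% and 21.5%, and at 100 reads or more all 3 are above 97%.

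Of the members read in a library, 12.6%, 9.77% and 10.9% were also read in the other 2 libraries for replicates 1, 2 and 3. For sites with a main signal these shares were 30.7%, 20.1% and 28.8%. The difference averaged -15.4 percentage points (SD 4.42, 3 of 3 libraries). Between sites with a mean of at least 10 reads it was -4.04 points (SD 4.68), within its spread. The median member read in a library had 0.180, 0.0673 and 0.0711 RPM in replicates 1, 2 and 3, which is 2, 1 and 1 reads. The median site with a main signal had 0.541, 0.337 and 0.569 RPM, or 6, 5 and 8 reads. On the log2 RPM scale the medians differed by -2.30 (SD 0.71, 3 of 3 libraries).

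The 10 most-read members were all read in every library, and all 10 had their highest RPM in replicate 3. Autosomal reads were 84.1%, 84.1% and 92.7% of the reads behind the RPM in replicates 1, 2 and 3, which raises autosomal RPM in replicate 3. Scaled to autosomal reads instead, 8 of the 10 were highest in replicate 3, 1 in replicate 1 and 1 in replicate 2. They held 13.7%, 13.4% and 16.03% of the member reads of replicates 1, 2 and 3, on average 14.4% ± 1.42 (SD, n = 3). With the first of them left out, the next 10 held 8.54% of the remaining member reads. Of the 10, 3 were Bc1-like, 2 lay at a RefSeq transcript end and 4 were A-rich, defined as 12 or more A, or 6 A in a row, within 20 bases after the site.

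**Figure D2:**
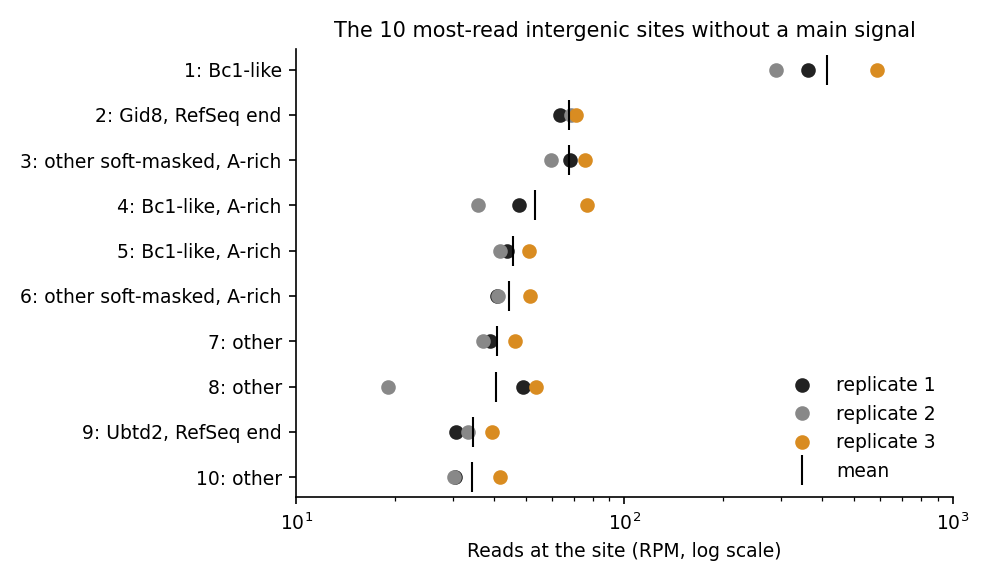
RPM (x axis, log scale) of the 10 most-read intergenic sites without a main signal in each of the 3 libraries (points) and their mean (vertical tick). Member 1 lies between 291 and 587 RPM, and members 2 to 10 lie between 18.98 and 76.8 RPM, with replicate 3 highest in each row.

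Bc1-like members were those whose 100 bases up to the site matched Bc1 in RefSeq over at least 50 bases at 90% identity or more. There were 225 of them, and they summed to 724, 593 and 1128 RPM in replicates 1, 2 and 3. That was 12.8%, 12.1% and 16.5% of the member reads, on average 13.8% ± 2.37 (SD, n = 3), from 0.836% of the members. Replicate 3 was the highest. All members together summed to 5660, 4891 and 6830 RPM. Of the 225, 133 (59.1%) were read in every library, where 18.6% of all autosomal sites were. Among intergenic sites with a main signal 2 matched Bc1. The Bc1 sequence, printed below, holds neither AATAAA nor ATTAAA. The rule therefore puts most sites with such a match among the members, and this contrast describes the rule.

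Member 1 alone held 50.8% of the reads of the Bc1-like members. It had 363, 291 and 587 RPM in replicates 1, 2 and 3 (4025, 4317 and 8256 reads), so that replicate 3 lay well above the other 2. It lies 1768 bases past the end of Frrs1l on the same strand. Its upstream sequence matched bases 3 to 88 of Bc1 without a mismatch over 86 bases, and a run of 12 A precedes the site base. Without it the Bc1-like members summed to 361, 302 and 541 RPM, or 7.35% of the remaining member reads.

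Bc1 itself is shown so that the sites can be placed on it. Capitals mark the bases aligned with the sequence at member 1, from GRCm38 in RefSeq.
Bc1, chr7:144914470-144914623, plus strand: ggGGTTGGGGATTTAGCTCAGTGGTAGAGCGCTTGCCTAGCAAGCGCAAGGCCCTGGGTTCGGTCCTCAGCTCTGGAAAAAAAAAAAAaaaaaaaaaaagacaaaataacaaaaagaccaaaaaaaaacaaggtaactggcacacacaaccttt
In 200 of the 225 members the match ran up to the site base. The site base was aligned with base 71 of Bc1 in the median member (quartiles 70 and 75), a few bases before the A-rich stretch, and 57 members shared base 71. The whole list holds no site with a run of 6 A in the 10 bases after it. In Bc1, base 71 is the last base before the stretch that meets this limit. The shared position cannot be told apart from that limit of the list. At the Bc1 gene 2 sites were listed, both with the terminal exon code, and these are no members. They summed to 1.62, 2.22 and 3.27 RPM in replicates 1, 2 and 3, far under member 1 in each library. The handling of multi-mapped reads is not stated, so reads of Bc1 and of its copies cannot be told apart.

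Of the 225 Bc1-like members, 142 (63.1%) were A-rich, where 11.9% of all autosomal sites were. Member 4 had 47.8, 35.7 and 76.8 RPM in replicates 1, 2 and 3, and matched Bc1 at 96.1% over 76 bases. Member 5 had 43.9, 41.8 and 51.1 RPM, and matched at 97.3% over 74 bases. It is 35864 bases past Olfr160, an olfactory receptor gene, and 3865 bases from Panx3, the nearest gene on either strand. Replicate 3 stood apart at member 4 and less so at member 5.

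Rn4.5s-like members numbered 101, of which 29 were read in every library (28.7%). They held 2.37%, 3.97% and 3.43% of the member reads in replicates 1, 2 and 3, on average 3.26% ± 0.817 (SD, n = 3). Of these reads (mean RPM) 66.7% lay on chromosome 6. The RefSeq gene Rn4.5s lies there too and had no listed site. With a stricter match (at least 70 bases at 95% identity), 29 sites with 2.02% of the member reads remained.
Rn4.5s, chr6:47654921-47655094, minus strand: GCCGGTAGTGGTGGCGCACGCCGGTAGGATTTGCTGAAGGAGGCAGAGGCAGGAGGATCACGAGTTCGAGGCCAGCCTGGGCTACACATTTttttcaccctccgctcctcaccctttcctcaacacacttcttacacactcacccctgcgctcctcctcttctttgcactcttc
Rn4.5s-like site, chr6:47650735-47650824, minus strand: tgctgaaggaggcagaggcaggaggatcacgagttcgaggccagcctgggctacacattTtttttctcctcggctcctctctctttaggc
Rn4.5s-like site, chr6:128760681-128760770, minus strand: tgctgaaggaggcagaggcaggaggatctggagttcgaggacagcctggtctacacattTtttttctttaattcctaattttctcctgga
These show the same stretch at the site: capitals in Rn4.5s mark the bases aligned with the first of the 2 sites, at 98.9% identity. The first, at chr6:47650765, had 20.8, 28.7 and 43.2 RPM in replicates 1, 2 and 3. The second, at chr6:128760711, had 25.5, 28.3 and 18.6 RPM and matched at 92.3%. The order of the libraries differed between them. Among Rn4.5s-like members 15.8% were A-rich, against 63.1% of the Bc1-like ones. Sites like other small RNAs of RefSeq numbered 64 and held 0.359% of the member reads. The most-read of these, chosen after its values were seen, matched a transfer RNA over 72 bases at 100% and had 3.16, 0.606 and 2.49 RPM.

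Some members lay in exons or at transcript ends that RefSeq lists. Within 25 bases of a RefSeq transcript end on their strand were 89 members (0.331%), with 4.02% ± 0.494 of the member reads, against 399 sites with a main signal (3.08%), with 26.3% ± 2.04 of their reads. With the members in a RefSeq exon added, they numbered 702 (2.61%). These 702 held 7.81%, 8.58% and 6.49% of the member reads in replicates 1, 2 and 3, on average 7.63% ± 1.06 (SD, n = 3). For intergenic sites with a main signal, 5.30% of sites and 30.4% ± 2.23 of reads were of this kind. Member 2, 2862 bases past the GENCODE end of Gid8, had 63.4, 68.9 and 71.2 RPM and lies 4 bases from the RefSeq end. Gid8 encodes a subunit of a ubiquitin ligase complex. It carries the variant hexamer AGTAAA at offset -24, and its 3 libraries lay close together. Member 9, 2022 bases past the GENCODE end of Ubtd2, a gene for a ubiquitin domain protein, had 30.7, 33.3 and 39.4 RPM and lies at the RefSeq end, with no listed hexamer. Of these 702 sites, 12.8% were read in every library and 37.9% had a variant hexamer in the 40 bases upstream.

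A smaller kind matched the end of another gene's mRNA. With a match of at least 80 bases at 95% identity ending within 100 bases of a protein-coding transcript end, and under 50% of the upstream sequence soft-masked, 43 members held 0.553% ± 0.119 of the member reads. Among sites with a main signal 107 did so, with 2.32% ± 0.245 of their reads. The most-read of the 43, named after its values were seen, matched Tdgf1 over 100 bases and lies 1670 bases past the end of the annotated pseudogene Tdgf1-ps1. Tdgf1 encodes a co-receptor of NODAL that pluripotent cells express. That site had 31.4, 15.1 and 15.9 RPM, with replicate 1 the highest. It was A-rich, with a run of 13 A after it, and its match to Tdgf1 was at 99% identity. The handling of multi-mapped reads is not stated, so reads of Tdgf1 and of this copy cannot be told apart.

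**Figure D3:**
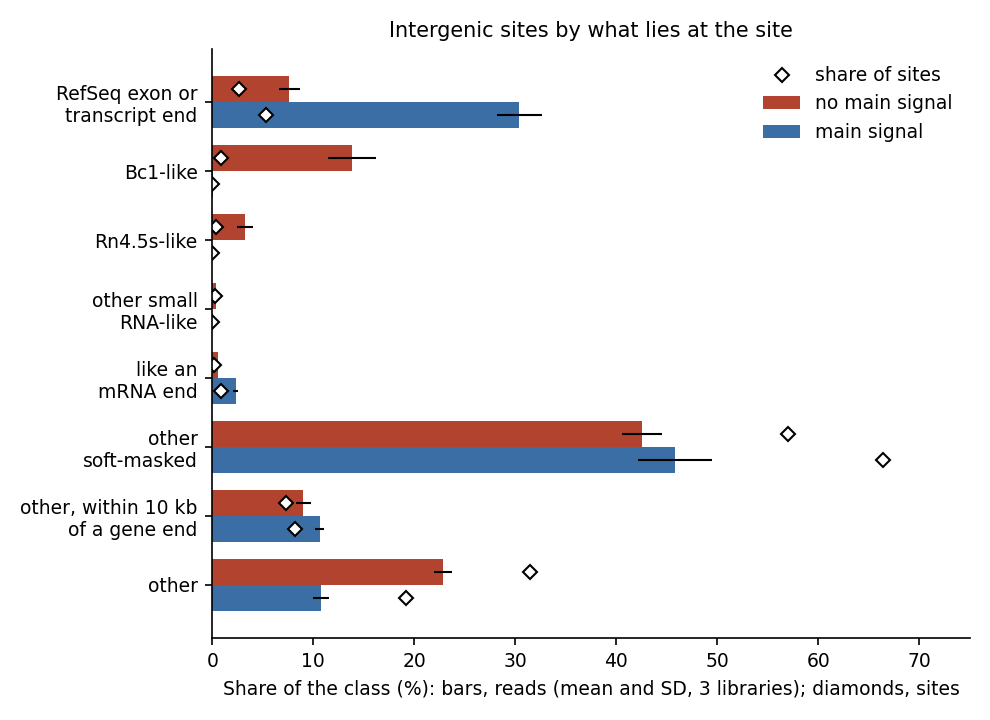
Share of reads (bars, mean and SD of 3 libraries) and share of sites (diamonds) in percent of the class (x axis), by what lies at the site (rows), for intergenic sites without and with a main signal. Bc1-like sites hold 13.8% of the reads without a main signal and 0.0343% with one, and RefSeq exons or transcript ends hold 7.63% and 30.4%. Bc1 holds no main hexamer, so the rule itself sorts the Bc1-like sites.

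Soft-masked sequence, which marks repeats in the reference, held most of the rest. The site base was soft-masked at 15958 members (59.3%), against 68.8% of the intergenic sites with a main signal and 45.5% of all autosomal sites. Over the sites read in a library the shares were 60.5%, 59.9% and 58.6% for members in replicates 1, 2 and 3, and 67.2%, 70.6% and 70.2% for sites with a main signal. The difference averaged -9.68 percentage points (SD 2.60, 3 of 3 libraries). It turned round against intronic and terminal exon sites without a main signal, at 4.16 and 28.0 points. The rule sorts some repeats into the class with a main signal. The repeat run found most in that class, described below, holds a main hexamer. It was in 17.4% of intergenic sites with a main signal and in 0.383% of members. How much of the difference from that class rests on such runs was not tested. Leaving out the kinds above, 15349 soft-masked members held 42.5% ± 1.97 of the member reads, and 3.46% of them were read in every library.

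No repeat annotation was used, so runs of 12 letters were counted on the RNA strand in the 60 bases up to the site, without any name. The runs named are those most frequent in a class, so the class difference of each is a description of how it was picked. The run found in most members was CAGGACAGCCAG, in 1680 members (6.24%), in 10 intergenic sites with a main signal (0.0773%) and in 2.55% of all autosomal sites. These letters belong to the B1 consensus as commonly given. The run ended 29 bases before the site base in the median of these members (quartiles 20 and 34), 98.8% of them were soft-masked and 44.9% were A-rich. They held 5.55% of the member reads, and 76 of the 1680 were read in every library.

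Member 6 is the most-read of these 1680. It had 40.9, 41.3 and 51.6 RPM in replicates 1, 2 and 3, with replicates 1 and 2 close together and replicate 3 the highest.

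Among intergenic sites with a main signal, AATAAATAAATC was the run found most, in 2254 (17.4%), against 103 members (0.383%) and 3.20% of all autosomal sites. It holds AATAAA, so the rule keeps it out of most members. The run AGCTACAGTGTA does not hold it, but lies before AATAAATAAATC in the same repeat, so the rule also sorts the sites that carry it. It was found in 310 members (1.15%), in 2132 sites with a main signal (16.5%) and in 3.32% of all autosomal sites. Both runs belong to the B2 consensus as commonly given. In the 310 members AGCTACAGTGTA ended 4 bases before the site base in the median (quartiles 2 and 19), and in the 2132 sites with a main signal 32 bases before it (quartiles 27 and 38). Of the 310 members, 50.6% were A-rich.

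A-rich sequence after the site was more frequent in the class than among sites with a main signal. Of the 26913 members, 3402 (12.6%) were A-rich, against 8.62% of the sites with a main signal and 11.9% of all autosomal sites. Over the sites read in a library, 14.6%, 13.1% and 12.5% of members were A-rich in replicates 1, 2 and 3, against 7.85%, 9.24% and 9.32% of sites with a main signal. The difference averaged 4.59 percentage points (SD 1.86, 3 of 3 libraries). By reads the shares were 19.1%, 17.4% and 17.1% for members and 4.65%, 6.13% and 6.22% for sites with a main signal, a difference of 12.2 points (SD 1.92, 3 of 3 libraries). A run of 8 or more A within 20 bases on either side of the site went the other way by sites. It was found at 9.29% of members and 15.2% of sites with a main signal. Among sites read in every library it was 14.2% and 16.3%. By reads it was higher in members, at 18.86% against 10.997%. This measure also counts bases before the site. Intronic sites without a main signal were A-rich more often than members, by 8.65 points by sites and 6.41 points by reads in the mean of the libraries. No listed site of any class had 7 or more A, or a run of 6 A, in the 10 bases after it, while 20201 had 6 A there.

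The 5 most-read A-rich members were members 3, 4, 5 and 6 and a site at chr4:145452547, plus strand, 1659 bases past the predicted gene Gm13230. Member 3 had 68.2, 59.7 and 75.6 RPM in replicates 1, 2 and 3, with little spread. It lies inside the RefSeq gene 2410003I16Rik, 322 bases from its GENCODE model, and its A and G rich sequence continues on both sides of the site. The chr4 site had 21.1, 23.0 and 23.5 RPM and carries a run of 11 A. The 5 most-read members that were not A-rich were members 1, 2, 7, 8 and 9. Member 1 is not A-rich by this rule although it follows 12 A, since only the bases after the site count.

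**Figure D4:**
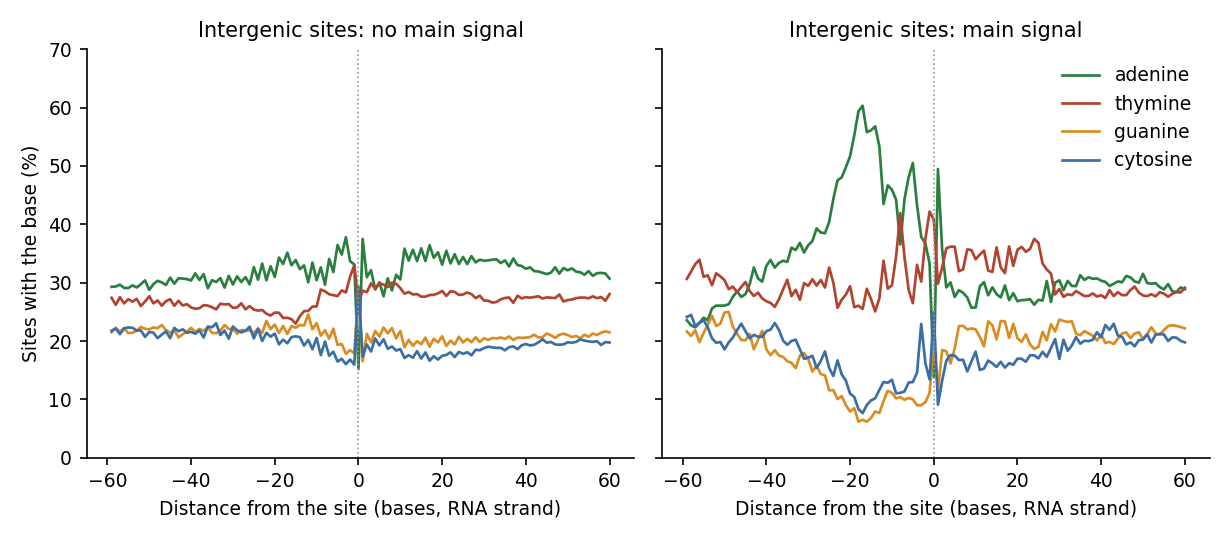
Share of sites with each base (y axis, percent) by distance from the site in bases on the RNA strand (x axis), for intergenic sites without (left) and with (right) a main signal. Between 20 and 11 bases before the site A is at 32.9% on average on the left and at 53.9% on the right, where the rule requires the A-rich hexamer.

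The A peak before sites with a main signal was lacking in members, but the rule requires a main hexamer there in that class and bars it from members. At the site base A was 15.2% in members and 13.8% at sites with a main signal. At the next base it was 37.5% and 49.5%. Between 11 and 20 bases after the site members averaged 34.8% A and 28.0% T, against 28.4% A and 33.9% T at sites with a main signal. The share of T and G together in bases 5 to 40 after the site was 48.1%, 48.8% and 48.4% at members read in replicates 1, 2 and 3, and 54.4%, 53.8% and 53.5% at sites with a main signal. The difference averaged -5.48 points (SD 0.72, 3 of 3 libraries). Against intronic sites without a main signal it was -0.41 points.

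Variant hexamers stood upstream of members more often than in a control window. A variant was any of 16 hexamers other than AATAAA and ATTAAA, searched on the RNA strand in the 40 bases up to the site. It was found in 27.3%, 28.9% and 26.3% of the members read in replicates 1, 2 and 3. In a control window of 40 bases that starts 100 bases after the site, limited to windows without a main hexamer, it was found in 20.98%, 20.8% and 21.5%. The difference averaged 6.37 points (SD 1.66, 3 of 3 libraries). Over all autosomal sites 31.1% had a variant hexamer upstream.

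The gap between the windows differed with depth. Among members with a single read, 22.2% had a variant hexamer upstream and 21.6% in the control window. At 30 to 99 reads the shares were 42.1% and 15.4%, and at 100 reads or more they were 37.3% and 19.7%, a narrower gap. Among the 1016 members with 30 reads or more, 418 (41.1%) had one upstream and 16.3% in the control window. In the mean over libraries, members with a mean of at least 10 reads gave a difference of 24.4 points. AGTAAA differed most in these 1016 members, with 7.09% upstream and 1.04% in the control window. Next came AAGAAA (6.89% and 2.70%), AATACA (4.92% and 1.14%) and TATAAA (4.53% and 0.830%). Of 78 listed AGTAAA in members with 30 reads or more, 61 (78.2%) began 30 to 15 bases before the site, against 55.1% of 850 in members with fewer reads. For TATAAA the shares were 62.1% and 44.8%, for AAGAAA 32.9% and 32.7%, and for AACAAA 34.8% and 38.8%. Member 2, printed above, carries AGTAAA in this range. Of the Bc1-like members, 5.78% had a variant hexamer.

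**Figure D5:**
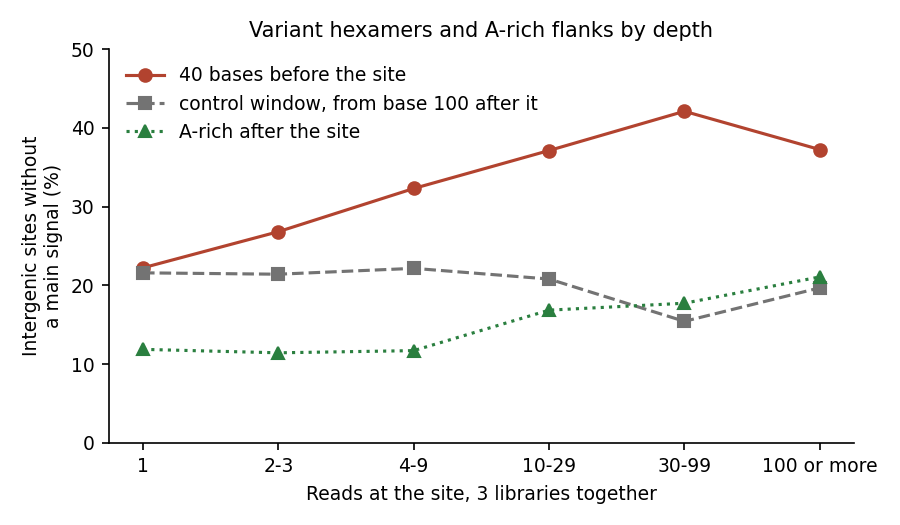
Share of intergenic sites without a main signal (y axis, percent) that have a variant hexamer in the 40 bases before the site, a variant hexamer in the control window, or A-rich sequence after the site, by the number of reads in the 3 libraries together (x axis). Upstream hexamers go from 22.2% at 1 read to 42.1% at 30 to 99 reads and 37.3% at 100 or more, and the control window lies between 15.4% and 22.2%.

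The offset limits of the rule divide neighbouring sites as follows. Members with a main hexamer just outside, at -9 to -7, numbered 373, with 2.14% read in every library and a mean of 0.178 RPM. Sites just inside, whose only main hexamers were at -12 to -10, numbered 559, with 6.26% and 0.261 RPM. At the far limit, 188 members with a main hexamer at -43 to -41 had 4.79% and 0.255 RPM, and 130 sites at -40 to -38 had 7.69% and 0.338 RPM. Well inside, at -25 to -15, 9301 sites had 13.0% and 0.741 RPM.

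Members lay farther from genes than sites with a main signal. Within 10 kb past a gene end on the same strand were 20.94%, 20.97% and 19.2% of the members read in replicates 1, 2 and 3, against 29.8%, 28.1% and 28.0% of the sites with a main signal. The difference averaged -8.26 points (SD 1.01, 3 of 3 libraries). Against terminal exon and intronic sites without a main signal it was 7.27 and 9.00 points. Those sites lie inside a gene whose own end is still ahead of them. For them the measure takes the end of some other gene behind the site, so these 2 values do not rank the classes. By reads, 26.6% ± 0.124 of the member reads lay 1 to 5 kb past a gene end, against 39.9% ± 1.86 of the reads at sites with a main signal. More than 10 kb from any annotated gene on either strand were 14091 members (52.4%), with 39.1% ± 0.659 of the member reads, against 44.0% of the sites with a main signal, with 27.3% ± 0.652 of their reads. In the sequence up to 5 kb upstream of a protein-coding start, on the opposite strand, lay 1347 members (5.01%) and 6.86% of the sites with a main signal.

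The 5 most-read members more than 10 kb from any gene were members 7, 8 and 10 and the 2 Rn4.5s-like sites printed above. Member 7 had 38.9, 37.1 and 46.4 RPM in replicates 1, 2 and 3, close together. It lies 41893 bases past Txn2, a mitochondrial thioredoxin gene, and has no listed hexamer and no A-rich flank. Member 8 had 49.2, 18.98 and 53.7 RPM, with replicate 2 well below the others. It lies 17855 bases past the predicted gene Gm13356, with AACAAG at offset -24. No complete ribosomal RNA was among the sequences it was compared with, so what RNA its reads come from was not tested. Member 10 had 30.5, 30.3 and 41.9 RPM and lies 463320 bases past Gm29516, with no listed hexamer.

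Members past pluripotency genes were frequent and weakly read. Of the 22 pluripotency genes in the list, 12 (54.5%) had a member within 10 kb past their end on the same strand, against 17.2% of 7352 protein-coding genes at 10 RPM or more and 11.3% of all 20780. Under 10 RPM it was 8.09% of 13428 genes, so the share differed with the reads of the gene. The 22 genes were not compared with genes of like reads, so the difference cannot be assigned to pluripotency genes as such. The 12 genes held 23 such members, of which 19 were read in 1 library and 1 in every library. The highest was 2557 bases past Dppa2, a gene for a nuclear factor of early embryos, with 0, 0 and 2.84 RPM in replicates 1, 2 and 3. Next came a site 2623 bases past Klf2, a transcription factor gene of the naive state, with 0.902, 0.673 and 0 RPM. The only site read in every library lay past Fgf4, a growth factor gene, with 0.0902, 0.0673 and 0.142 RPM, or 1, 1 and 2 reads. At this depth no pattern over the libraries can be read from these sites.

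Among the 204 members with at least 100 reads, the chi-square of the reads over its degrees of freedom had a median of 12.7, which describes the variation among libraries beyond counting error. With a library left out, members with at least 100 reads in the remaining libraries were selected anew. Without replicate 3 the median was 5.18, without replicate 2 it was 9.27 and without replicate 1 it was 12.55. These medians rest on other sets of members than the 204 and on fewer degrees of freedom. With all libraries the median was 14.3 at the 17716 autosomal sites with this depth and 12.6 at the 507 intergenic sites with a main signal. After scaling to autosomal reads, replicate 3 was the highest library at 118 of the 204 members, replicate 1 at 46 and replicate 2 at 40. Among the 17716 sites they were the highest at 6733, 5276 and 5707.

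The 3 members with the highest such chi-square for their number of reads were each high in replicate 3. A site at chr4:156102450, plus strand, 73555 bases past Tnfrsf18, a receptor gene of the tumor necrosis factor family, had 0, 0.404 and 9.67 RPM in replicates 1, 2 and 3. Its nearest gene on either strand, 9430015G10Rik, is 7532 bases away. A site at chr7:94036204, minus strand, 332779 bases past Gm44601, had 0, 1.08 and 8.60 RPM, and its sequence matched the mRNA end of Hnrnpa3, a gene for an RNA-binding protein, at 98.02%. Its nearest gene on either strand, Gm32647, is 6487 bases away. A site at chr2:177829507, minus strand, in a RefSeq exon of Gm14325, had 0.812, 0 and 6.47 RPM. In each, replicate 3 stood apart and another library had no read.

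Some members lay close together. Linking members of 1 strand less than 1000 bases apart gave 1196 groups with 2687 members (9.98%) and 32.2% of the member reads, the largest with 12 sites. There were 774 groups without replicate 1, 616 without replicate 2 and 771 without replicate 3, since sites read in the left-out library alone drop out. For intergenic sites with a main signal there were 460 groups with 7.37% of the sites and 24.2% of the reads. The members are the larger class (26913 sites against 12936), and the shares were not adjusted for this. The 3 groups with the highest summed RPM were led by members 1, 2 and 3. Their other sites were weak: the second site at member 1, at chr4:56955423, had 0.0902, 0.337 and 0.427 RPM, and the 2 others at member 2, at chr2:180721548 and chr2:180721472, averaged 0.232 and 0.1503 RPM. The other site at member 3, at chr16:94011033, averaged 0.0601 RPM. These groups are thus 1 strong site each with weak neighbours.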

How the data were processed

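PAS-seq of 3 F121-9 libraries was analysed from the deposited site lists. The authors' lists give the RPM of each site, its mean RPM, a fraction that equals the share of libraries in which it was read, a region code and signal hexamers. They rest on mm10 and GENCODE M21, per the text deposited beside them. Neither aligner nor site caller is named there, nor is the handling of multi-mapped reads: these are not stated in the sources used. The RPM steps gave whole reads, within 0.01 reads, for 99.9994%, 100% and 99.9994% of the values of replicates 1, 2 and 3. The libraries had 11085428, 14855484 and 14064461 reads, so that a count of 0 allows up to 0.271, 0.202 and 0.213 RPM in replicates 1, 2 and 3 (3 reads, counting error only). No count test was run, since there is 1 group. Replicate 3 had no reads on the X chromosome and a higher autosomal share of its reads (92.7%, against 84.1% in replicates 1 and 2), and only the 19 autosomes were used.

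Classes were compared within each library with the exact two-sided sign-flip test (scipy 1.17.1) and Benjamini-Hochberg adjustment. All 181936 deposited hexamers compared were found in GRCm38. Matches were made with BLAST+ 2.17.0. Statistics were tested on simulated data. Sites named are the 10 with the highest mean RPM, the 3 with the highest chi-square over libraries relative to their reads, at 100 reads or more, the 5 highest far from genes, A-rich and not A-rich, and the sites of the 3 strongest groups. Sites on 1 chromosome are not named. The positions and sequences of members 4 and 6 and 1 site with a main signal are not reported here. The members and lists were chosen with earlier results of these data known. The kinds, the match limits and the 12-letter runs were chosen after their values were seen. The signal search, the control window, the pseudocount, the distance and group limits, the depth filter, the comparison class and the libraries used were varied. Another A-rich rule, at least 7 A in 10 bases, gave no value. Runs of 8 or more A on either side of the site were also counted, and by sites they were less frequent in members.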

Additional observations from a re-analysis of the deposited data

Results flagged for a closer look

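Sites on the X chromosome were outside the comparisons. Of the 1173 intergenic sites without a main signal listed there, 580 were read in replicate 1, 718 in replicate 2 and 0 in replicate 3. They had 4277 reads (386 RPM) in replicate 1, 4702 reads (317 RPM) in replicate 2 and 0 reads in replicate 3. By counting error alone a count of 0 allows up to 3 reads. But nearly all reads at listed sites in replicate 3 were autosomal, 13040404 of 13040620, against 9326090 of 10147672 in replicate 1. The reason is not given in the labels, so the count of 0 sets no upper limit on X reads in replicate 3.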

How the results depend on the processing

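Over 83 alternative settings of the 9 differences, 76 kept the direction of their mean and 7 reversed. Against intronic sites without a main signal, the share read in both other libraries differed by 0.51 points (exact p = 0.75), A-rich sites by -8.65, A-rich reads by -6.41, soft-masked sites by 4.16 and sites within 10 kb past a gene end by 8.997. Against terminal exon sites without a main signal, soft-masked sites differed by 28.0 points and sites past a gene end by 7.27. The reversals for sites past a gene end compare unlike distances, since intronic and terminal exon sites lie inside a gene. The cause of the other reversals was not tested. Between sites with a mean of at least 10 reads, the variant hexamer difference was 24.4 points, A-rich sites 10.4, sharing -4.04 (SD 4.68, exact p = 0.5) and median log2 RPM -0.07 (SD 0.26, exact p = 1), the last 2 within their spread. The log2 median difference was -1.51 with 0.1 RPM added and -0.42 with 1 RPM added. Without the highest member, the 10 most-read held 8.54% and Bc1-like members 7.35% of the reads. With the stricter match, Rn4.5s-like members held 2.02%. The Bc1-like and Rn4.5s-like settings were chosen after seeing the data. Groups numbered 659 at 200 bases, 2411 at 5000 bases and 616 to 774 with a library left out. Spread at well-read members, selected anew each time, ranged from 5.18 to 12.55 with a library left out. At least 7 A in 10 bases gave no value, since 0 listed sites have them. No paired analysis was possible because the series has 1 group and so no groups to pair; class differences were taken within each library. With 3 libraries no p can go under 0.25, and 49.4% of members rest on 1 read.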
